A study of Anguilla anguilla and Anguilla rostrata with 84 samples.

Results

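Livers of European eels, Anguilla anguilla, kept on a restricted diet were set against livers of eels kept at a low temperature. The 2 groups were chosen from the treatment labels, and they hold 9 of the 84 fish of the series. The restricted diet group has 5 fish fed at 2.5% of total animal weight, and the low temperature group has 4 fish kept at 13 degrees C. A further low temperature fish, replicate 4, was left out because its array runs opposite to those of its group, and its values are given beside the results it touches. Replicate numbers only name fish, in the order of their records.

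Each array compared the liver RNA of 1 fish, labelled with Cy3, with Cy5-labelled RNA pooled from 30 wild eels of Certes in France, the same on every array. Every value below is a log2 ratio of fish over pool unless said otherwise, and a difference is the restricted diet minus low temperature. The arrays carry 992 contigs, transcripts put together from sequencing reads, and every contig has 3 spots. The other 8 laboratory groups, with 37 usable fish, are a control, high salinity (18 per mil), food with PCB (polychlorinated biphenyls, 50 or 300 ng/g dry weight), water with cadmium (0.4 or 4 ug/L), food with methylmercury (5 ug/g) and food with organochlorine pesticides (13 ng/g). The labels give 1 level of food and 1 temperature for these treatments. Not given in the sources used here are the food ration at 13 degrees C, the water temperature on the restricted diet, the length of either treatment and the age of the fish. The design text calls the fish separate individuals but does not say whether they shared a tank. The p-values therefore rest on the spread between fish. In the limma fits that spread is estimated over all laboratory groups together.

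The liver of a fish stores glycogen and fat, makes most plasma proteins and carries out much of the body's detoxification. When food is short, it draws on these stores and slows the making of new lipid, and fasting eels in particular live on fat for long periods. An eel takes the temperature of its water, so cold slows its enzymes directly, and fish acclimated to cold are known to adjust the lipids of their membranes and the amounts of many metabolic enzymes. The comparison asks which liver transcripts differ between these 2 kinds of metabolic restraint, without reading both against the same few control fish. Contigs carry no gene names here: of 992 contigs, 0 matched a name in the table of the eel reference assembly. No contig can therefore be given a function or a sequence, no pathway could be counted, and the liver label could not be checked against liver markers. For the same reason at most 2 contigs in each direction are named per comparison.

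The restricted diet arrays were dim, and this bears on every result below. In these 5 fish, 392, 559, 672, 577 and 565 contigs had a signal above background in both channels, against 939, 972, 956 and 949 in the 4 low temperature fish. The groups did not overlap, and the means were 553 ± 101.04 and 954 ± 13.9 contigs (SD, n = 5 and 4), with a two-sided exact permutation p of 0.0159, the smallest that groups of this size can give. The loss of contigs above background lay in the channel of the fish. Its median background-subtracted intensity over contigs was -12.7, 8.92, 25.1, 9.92 and 14.7 on the diet arrays, against 246.6 ± 100.96 (SD, n = 4, highest 383) on the low temperature arrays, again without overlap (exact permutation p = 0.0159). In that channel 28.4% of contigs were at or below background on every diet array, and 0 were so on every low temperature array. The pool, which is the same RNA throughout, was above background at 964 ± 23.0 contigs on the diet arrays and at 957 ± 12.7 on the low temperature arrays, a difference within the spread (exact permutation p = 0.587). Its median signal was also lower on the diet arrays, though with overlap between the groups. It was 62.1 ± 46.5 intensity units on the diet arrays and 140.96 ± 56.7 on the low temperature arrays (exact permutation p = 0.0794). The background itself did not separate the groups, at a median of 521 ± 55.6 intensity units in the fish channel of the diet arrays and 483 ± 62.0 in that of the low temperature arrays (exact permutation p = 0.460). Labelled cDNA of fish and pool was combined in equal amounts, per the labels, and the files hold no measure of RNA quality. Less RNA of each transcript and weaker labelling cannot be told apart in these values.

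**Figure D1:**
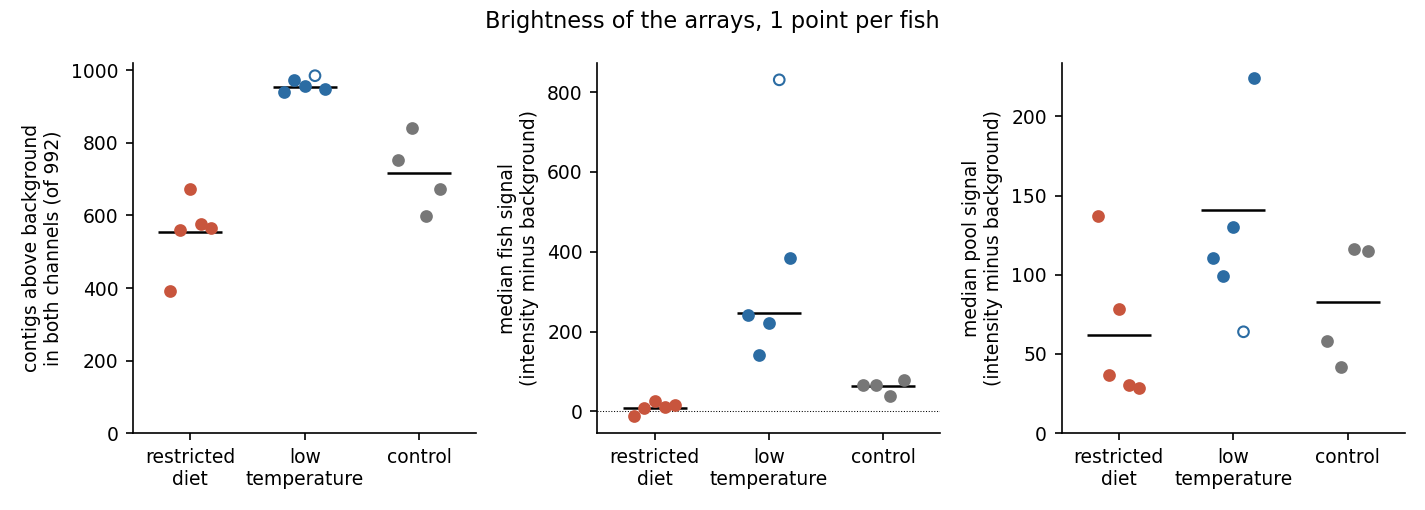
Each point is 1 fish, and black bars are means over the fish used. The panels plot the contigs above background in both channels (of 992), the median fish signal and the median pool signal, both in intensity units after subtraction of background. Open circles are low temperature replicate 4. Fish signals on the restricted diet arrays lie near 0, below those of all low temperature and control fish.

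The repeat spots of a contig also agreed less well on the dim arrays. The median SD of the log2 ratio over the 3 spots was 0.163 ± 0.031 on the diet arrays and 0.123 ± 0.0093 on the low temperature arrays (SD, n = 5 and 4, exact permutation p = 0.0159). Between fish the picture was different, since the median SD per contig was 0.213 in the diet group and 0.219 in the low temperature group over all 992 contigs. Over the 367 contigs above background in both channels on all 9 arrays it was 0.297 and 0.256. Correlations between arrays over all contigs ran from 0.62 to 0.82 within the restricted diet, from 0.41 to 0.66 within low temperature, and from 0.26 to 0.57 between the groups. All of these arrays share the pool. For low temperature replicate 4 the correlations lay between -0.56 and -0.49 inside its own group and between -0.48 and -0.24 to the diet fish. Its fish channel was the brightest of its group, at a median of 831 intensity units, and its pool channel was the dimmest, at 64.0. The labels give the same dyes for this array as for all others, and its direction is not settled.

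The restricted diet differed from low temperature at 110 of 992 contigs, 11.1% of those tested. Of these, 62 were higher on the restricted diet (6.25%) and 48 were lower (4.84%), at an adjusted p under 0.05 in limma. The median size of these differences was 0.82 on the log2 scale, while the median difference of all 992 contigs was -0.00044. Calls were more frequent where signal was higher. Among the 367 contigs above background in both channels on all 9 arrays, 72 passed (19.6%), 45 of them higher (12.3%) and 27 lower (7.36%) on the restricted diet. Among the other 625 contigs 38 passed (6.08%). By mean foreground, 53 contigs of the brightest 25% passed (21.4%), against 2 of the dimmest 25% (0.806%). Of the contigs whose fish signal was at or below background on every diet array, 6 passed (2.13%). No size is given for them because the diet level is only a bound there. A stricter limit, at least 1.5 times background in both channels on all 9 arrays, left 10.4% of contigs, of which 25 passed (24.3% of those left), 11 higher (10.7%) and 14 lower (13.6%) on the restricted diet. The groups did not overlap at 56 of the 72 contigs that passed above background, against 24% of the 367.

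**Figure D2:**
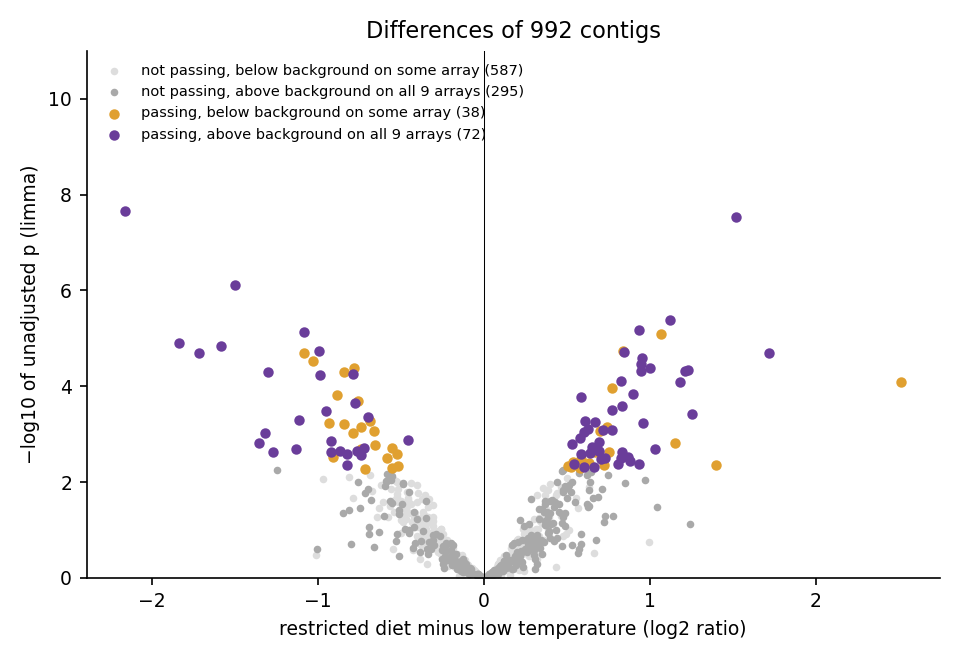
Each point is 1 of 992 contigs. The x axis is the difference of the log2 ratio, restricted diet minus low temperature, and the y axis is −log10 of the unadjusted limma p. The 72 passing contigs above background on all 9 arrays (purple) fall on both sides of 0, and 38 further passing contigs (orange) were below background on at least 1 array.

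Single fish carried weight in these counts. Without restricted diet replicate 2 the count fell to 51 of all contigs and 38 of those above background. Without low temperature replicate 3 it was 56 and 37, and without low temperature replicate 5 it was 49 and 37. Of the 72 contigs, 31 passed whichever 1 of the 9 fish was left out. Keeping low temperature replicate 4 as deposited gave 11.4% of contigs, which held 76 of the 110, and turning its sign gave 13.4%, which held 93.6% of the 110. The normalization moved the balance of directions. Centring each array on its median in place of the intensity-dependent curve (loess) gave 10.3% of contigs, 22 contigs higher and 80 lower on the restricted diet, and 47 of them were among the 110. Above background it gave 48 contigs, 16 higher and 32 lower, with 25 among the 72. In the authors' processed log2 ratios 38.7% of 782 testable contigs passed, 15.9% higher and 22.9% lower, with 55 among the 110. There 90 of the 110 had a value with the same sign. Any of the 110 that could not be tested there is not counted in the 90, so the rest are not all reversals. Weighting arrays by their quality gave 20.9% of contigs, with all 110 among them. The share of passing contigs that were higher on the restricted diet was 56.4% with loess and 21.6% with median centring, and the authors' processed values gave 40.9%.

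Among contigs above background on all 9 arrays with groups that did not overlap, contig_10692 and contig_36254 showed the largest increases on the restricted diet. The log2 ratio of contig_10692 was 3.03, 1.32, 2.26, 1.95 and 1.86 in the diet fish, against 0.22, 0.62, 0.33 and 0.26 in the low temperature fish. Every diet fish was above every low temperature fish, and the diet fish were the more variable, at 2.08 ± 0.63 and 0.36 ± 0.18 (SD, n = 5 and 4). The difference was 1.72 (SE 0.36, limma adjusted p = 0.00137), which is 3.30-fold. The 4 control fish stood between the groups, at 1.46 ± 0.21. Low temperature replicate 4, left out, stood at -0.67, below the rest of its group. The pool signal behind the ratio was low on some diet arrays, at 17.8 intensity units for replicate 2 and 82.7 to 190 for the others, against 293.2 to 888 on the low temperature arrays.

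contig_36254 had the tighter values of the pair in the diet fish (SD 0.19, against 0.63), but not in the low temperature fish (0.25, against 0.18). Its log2 ratio was -0.14, -0.0084, 0.18, -0.34 and -0.14 in the diet fish, against -1.58, -1.37, -1.97 and -1.51 in the low temperature fish. The diet fish lay close to the pool and close to the control (-0.23 ± 0.32, n = 4), whereas all 4 low temperature fish lay well below the pool. The fish signals overlapped, at 719 to 2688 intensity units on the diet arrays and 1586 to 5217 on the low temperature arrays. The pool signals did not, at 786.5 to 1722 and 2920 to 8647.5. The difference in the log2 ratio was 1.52 (SE 0.22, limma adjusted p = 1.49e-05), or 2.87-fold. Low temperature replicate 4 stood at 1.27, above every diet fish, and with it kept as deposited the difference was 0.94 and no longer passed (adjusted p = 0.0511).

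The largest decreases were at contig_11347 and contig_26781. contig_11347 had log2 ratios of -2.68, -3.57, -2.52, -2.82 and -1.61 in the diet fish, against -0.86, -0.45, -0.42 and -0.20 in the low temperature fish. Its fish signal was 1779 to 11565 intensity units on the diet arrays and 15119 to 35704 on the low temperature arrays. The groups did not overlap, at -2.64 ± 0.70 and -0.48 ± 0.28 (SD, n = 5 and 4), and the difference was -2.16 (SE 0.31, limma adjusted p = 1.49e-05), or 4.46-fold lower on the restricted diet. The diet mean was within 0.1 of the control mean, which was -2.69 ± 0.35. Low temperature replicate 4, left out, stood at -0.57, inside the range of its group. The fish foreground of that fish was the highest intensity found on the laboratory arrays, so its ratio is capped here. This value therefore cannot show whether the fish lay with its group. In the authors' processed values the difference was -0.41 and did not pass (adjusted p = 0.386).

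contig_26781 had log2 ratios of -2.67, -3.06, -2.32, -2.07 and -1.58 in the diet fish, against -0.86, -0.66, -0.26 and -0.25 in the low temperature fish. Here too the diet fish resembled the control (-2.13 ± 0.43) and the low temperature fish lay nearer the pool. Low temperature replicate 4, left out, stood at 1.05, above the rest of its group. The difference between the groups without it was -1.84 (SE 0.37, limma adjusted p = 0.00137), or 3.57-fold lower on the restricted diet. In the authors' processed values the difference was -1.07 (adjusted p = 0.193).

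**Figure D3:**
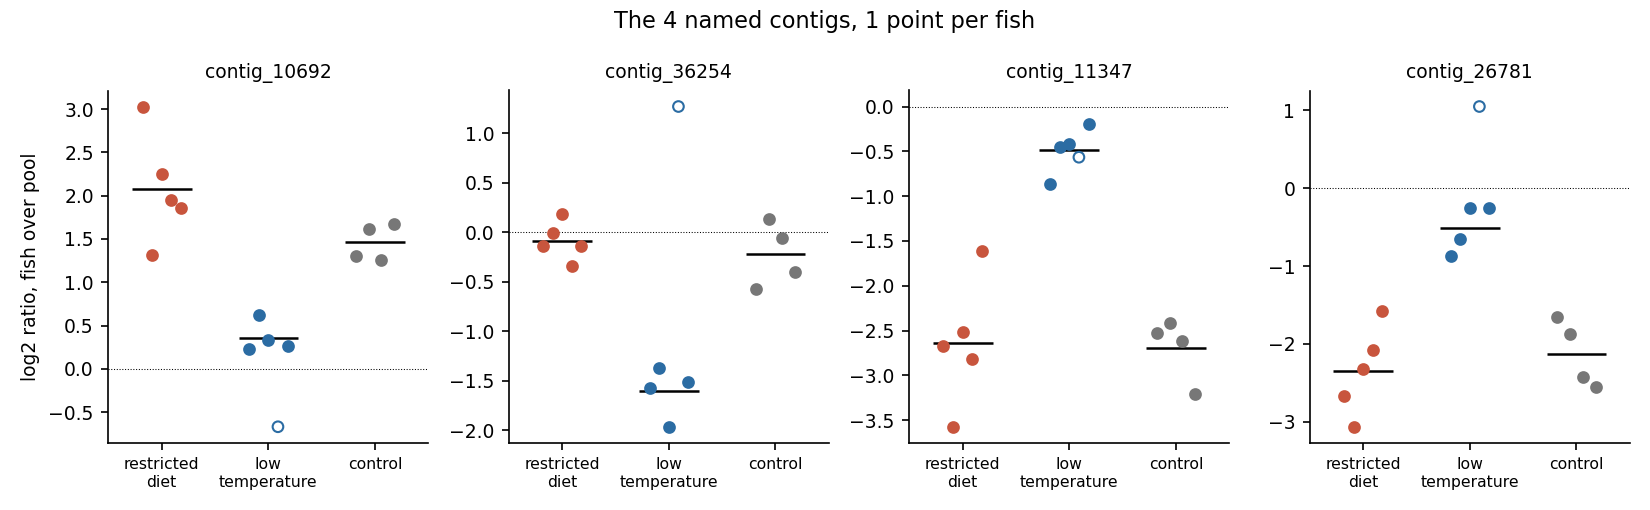
Log2 ratio of fish over pool for the 4 named contigs, 1 point per fish, with bars at the group means and a dotted line at the pool level where it falls in the panel. Groups that do not overlap once low temperature replicate 4 (open circle) is left out were a condition for naming these 4 contigs. The control fish lie nearer the restricted diet.

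Because a ratio can move through either dye, the channels were also tested one at a time, an alternative chosen after seeing the data. Each channel was corrected for background, put on the log2 scale and quantile normalized between arrays. The fish channel alone differed at 10.2% of contigs, 38 higher (3.83%) and 63 lower (6.35%) on the restricted diet, and 22 of them were among the 110 found with the ratio. The pool channel alone, which holds the same RNA on every array, differed at 61 contigs (6.15%), 30 higher (3.02%) and 31 lower (3.12%) on the diet arrays. Among the 367 contigs above background these counts were 39 (10.6%) and 28 (7.63%). Pool and fish RNA were hybridized together on each spot, and whether the fish RNA moved the pool signal was not tested.

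The 72 ratio calls above background were then read in both channels. The fish channel lay on the same side as the ratio at 62 of them. It passed by itself at 10 (13.9%, against 10.6% of the 367), of which 6 were higher and 4 lower on the restricted diet. The pool channel passed at 7 (9.72%, against 7.63% of the 367), each time against the direction of the ratio. Of these 7, 0 were among the 10. At 35 of the 72 contigs the difference in the pool channel was the larger in size. Choosing contigs for their ratio favours a fish channel on its side and a pool channel against it. These counts therefore only describe the 72 contigs, and the other shares over all 367 were not counted. Single channels were less precise than the ratio, with a median SE of 0.40 in the fish channel, 0.34 in the pool channel and 0.23 for the ratio over these 367 contigs. Of the 4 named contigs, only contig_36254 passed in the fish channel, at 1.27 (limma adjusted p = 0.0247), with -0.26 in the pool channel (adjusted p = 0.736). Those values are after quantile normalization. Before it, the fish signals of contig_36254 overlapped between the groups, and its pool signals were lower on every diet array. They therefore do not settle which dye moved at this contig. For contig_11347 the fish channel differed by -0.62 and the pool channel by 0.98, for contig_26781 by -0.89 and 0.93, and for contig_10692 by 1.16 and -0.65. None of these 6 values passed, with adjusted p from 0.107 to 0.374. With the median brightness of the pool channel as a covariate in the ratio fit, 10.5% of contigs passed, 89 of them among the 110.

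**Figure D4:**
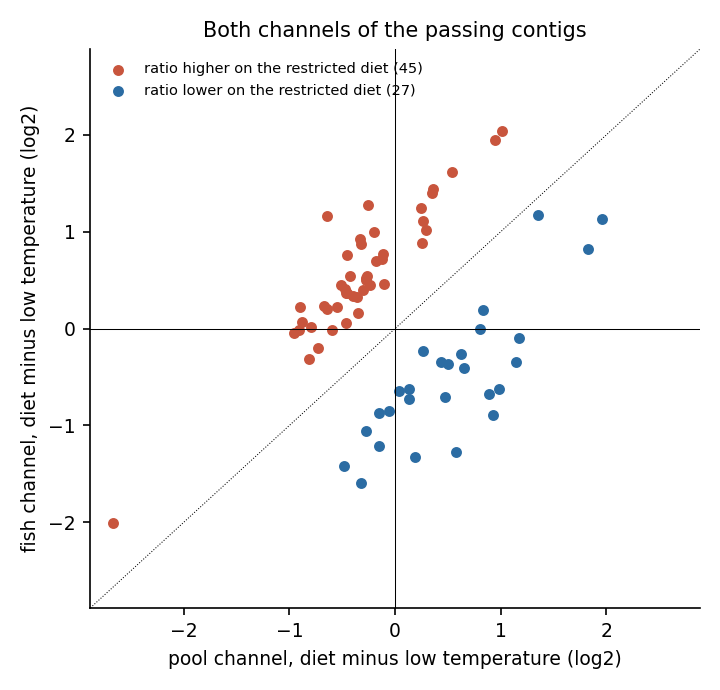
The 72 contigs that passed in the ratio and were above background on all 9 arrays. The x axis is the difference of the pool channel and the y axis that of the fish channel, both restricted diet minus low temperature on the log2 scale, and the dotted line marks equal differences. Contigs with a higher ratio on the diet (red, 45) lie above the line and those with a lower ratio (blue, 27) below it. The pool channel passed by itself at 7 of the 72 (9.72%), against 7.63% of the 367 contigs above background on all 9 arrays.

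To see which of the 2 groups stood away from the rest, each was set against the mean of the other 8 laboratory groups in the same fit. The restricted diet differed at 8 contigs (0.806%), 7 higher (0.706%) and 1 lower (0.101%), and 12.3% of contigs had an unadjusted p under 0.05. Low temperature differed at 78 contigs (7.86%), 40 higher (4.03%) and 38 lower (3.83%), and 23.1% had an unadjusted p under 0.05. These comparisons share the same 37 fish and are not independent. The median SE of a difference was 0.148 for the diet and 0.164 for low temperature, and the median size over all contigs was 0.125 and 0.190. With low temperature replicate 4 kept, 11.2% of contigs differed as deposited, 51 of them among the 78, and 11.3% with its sign turned, 71 of them among the 78. The order of the groups depended on the processing: the authors' processed values gave 300 contigs for the restricted diet and 8 for low temperature. Median centring gave 1 and 48.

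For the restricted diet, contig_34019 stood out most. Its log2 ratio was 1.82, 1.55, 1.05, 1.34 and 1.21 in the diet fish, while the other 37 fish ran from -0.82 to 1.45 with a median of 0.65. All diet fish were above that median, and the lowest was below the highest of the others. The 4 low temperature fish averaged 0.27 ± 0.094, and replicate 4 of that group, left out, stood at -0.52. The difference from the 8 groups was 0.82 (SE 0.15, limma adjusted p = 0.00225). With median centring it was 0.62 and did not pass (adjusted p = 0.112). The fish signal behind contig_34019 was 491.2 to 1197.7 intensity units on the diet arrays and 782.7 to 1655.2 in the control. Its pool signal on the diet arrays was 80.3 to 318.2, which overlapped that of the control. contig_5818 was higher by 0.74 (SE 0.19, limma adjusted p = 0.0470). Its log2 ratio was 0.37 to 1.57 in the diet fish, which overlapped 0.079 to 0.47 in the control. Its fish signal was low on the diet arrays, at 52.8 to 246.5 intensity units, against 236.5 to 414.7 in the control. Its pool signal on the diet arrays was 29.5 to 255.3. Its call was lost without any 1 of restricted diet replicates 1 to 4, at 0.56 to 0.85, with median centring (0.39, adjusted p = 0.390) and in the authors' processed values (1.02, adjusted p = 0.0557). contig_151 was the only contig lower on the diet, with a log2 difference of -0.44 (SE 0.095, limma adjusted p = 0.0180). The diet mean was -0.91 ± 0.12, and the control, the lowest of the other 8 groups, stood at -0.73 ± 0.075. These groups overlapped, since the highest diet fish, at -0.79, was above the lowest control fish, at -0.82. The call for contig_151 was lost without restricted diet replicates 2, 3 or 4, at -0.45 to -0.40, and with median centring (-0.42, adjusted p = 0.271). In the authors' processed values its difference was 0.30, the other way. Single fish decided this short list, since 4, 3, 1, 3 and 4 contigs passed without restricted diet replicates 1 to 5 in turn.

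For low temperature, contig_25111 and contig_11347 were the largest increases. contig_25111 had log2 ratios of 1.00, 0.74, 0.69 and 0.12 in the low temperature fish, against -1.61 to -0.054 with a median of -0.68 in the other 37 fish. No value of the other fish reached the lowest of the low temperature fish. Low temperature replicate 4, left out, stood at 0.011. The difference was 1.37 (SE 0.20, limma adjusted p = 3.15e-05), and the diet mean of -0.86 ± 0.42 lay within the range of the other 8 group means. contig_11347 was higher by 1.36 (SE 0.25, adjusted p = 0.000409) than the 8 groups, whose means ran up to -0.96, in methylmercury. Of the decreases, contig_36254 differed by -1.11 (SE 0.18, limma adjusted p = 5.91e-05). contig_22265 differed by -1.23 (SE 0.37, limma adjusted p = 0.0299), a call lost without low temperature replicates 2, 3 or 5, at -1.27 to -0.98. Between the restricted diet and low temperature its difference was 0.68 and did not pass (adjusted p = 0.415). Its low temperature values, -2.90 to -1.33, lay inside the range of the other 37 fish, -3.19 to 0.33. For contig_11347 the lowest low temperature value, -0.86, was below the highest of the other fish, -0.71. For contig_36254 the highest low temperature value, -1.37, was above the lowest of the other fish, -1.40. With low temperature replicate 4 kept as deposited, contig_36254 stood at -0.54 (adjusted p = 0.141) and contig_22265 at -0.39 (adjusted p = 0.607). In the authors' processed values the call was lost for contig_11347, at 0.72 (adjusted p = 0.208), and for contig_22265, at -1.44 (adjusted p = 0.169). Without low temperature replicates 2, 3 or 5 the count of 78 became 47, 30 and 32.

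At the 72 contigs that separated the 2 groups above background, the low temperature mean was the highest or lowest of all 10 laboratory groups at 49 and the restricted diet mean at 29. The same was true of 32.2% and 19.9% of the 367 contigs above background. Choosing contigs for their difference makes such positions more frequent, so these counts only describe them.

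The other 8 groups did not enter the choice of these 72 contigs except through the shared spread, and where they lay was read fish by fish. In the control, each fish was nearer the restricted diet mean than the low temperature mean at 61.1% to 88.9% of the 72 contigs (median 80.6%, n = 4). Over all 367 contigs above background the median was 68.7%. Fish at 4 ug/L cadmium (65.3% to 88.9%, median 70.1%, n = 4) and at 0.4 ug/L (65.3% to 88.9%, median 69.4%, n = 5) also lay on the side of the diet, every fish above 50%. Over the 367 contigs the medians were 64.3% and 59.1%, and every cadmium fish was above 50% there too, so this position was not confined to the 72 contigs. Fish on organochlorine pesticides lay on the other side, at 23.6% to 43.1% (median 34.7%, n = 5), against a median of 42.0% over the 367 contigs. Methylmercury fish ran from 13.9% to 54.2% (median 43.1%, n = 5), with a median of 44.4% over the 367 contigs. High salinity (33.3% to 59.7%, n = 5), PCB at 50 ng/g (33.3% to 69.4%, n = 5) and PCB at 300 ng/g (25.0% to 77.8%, n = 4) each had fish on both sides. Their medians were 55.6%, 65.3% and 48.6%, against 52.0%, 58.9% and 50.7% over the 367 contigs. With median centring the control ran from 70.8% to 88.9%, and pesticides from 30.6% to 65.3%, so that the pesticide fish then lay on both sides.

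**Figure D5:**
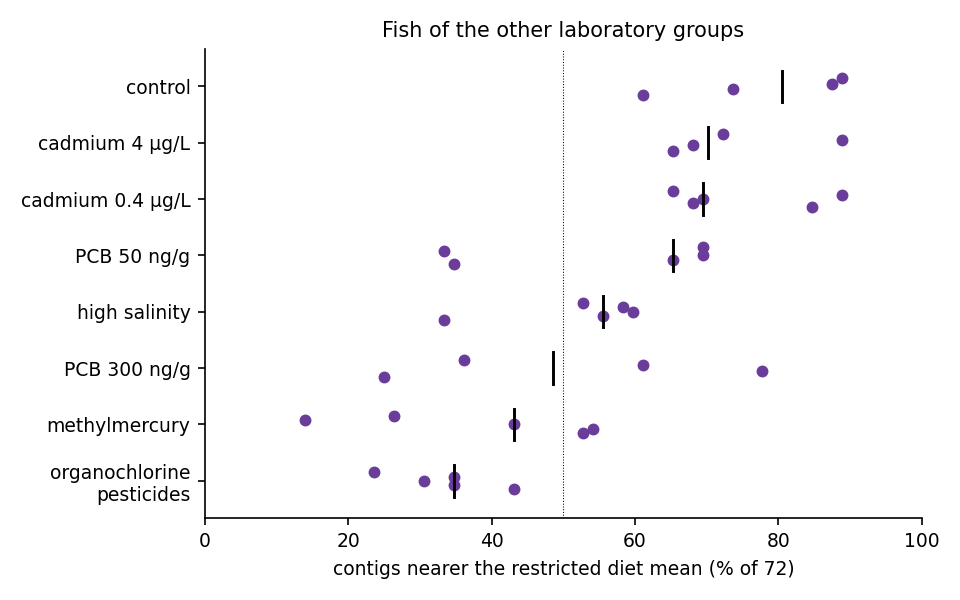
Each point is 1 fish of the other 8 laboratory groups, with a bar at the group median. The x axis is the percentage of the 72 contigs at which that fish lay nearer the restricted diet mean than the low temperature mean, and the dotted line marks 50%. Control and cadmium fish all lie to the right of the line and organochlorine pesticide fish all to the left.

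Brightness differed between these groups too. The median number of contigs above background in both channels was 714 in the control, 831 and 882 at 4 and 0.4 ug/L cadmium, 796 in high salinity, 874 in methylmercury, 966 in pesticides, and 980 and 911 at 50 and 300 ng/g PCB. The control, which lay nearest the restricted diet, was the dimmest of the 8. At 50 ng/g PCB, replicates 3 and 5, with 470 and 377 contigs above background, both lay at 69.4%. Replicates 1 and 4, with 980 and 987, lay at 34.7% and 33.3%, but replicate 2, with 990, lay at 65.3%. At 300 ng/g, replicates 2 and 3 (869 and 783 contigs) lay at 77.8% and 61.1%. Replicates 1 and 4 (952 and 956) lay at 25.0% and 36.1%. In high salinity the dimmest fish (730 contigs) was the lowest, at 33.3%. The part of brightness in this pattern was not tested.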

How the data were processed

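The members, contrasts and rules were chosen with earlier results of these data known. Raw data are spot intensities that the authors deposited per channel, as foreground and background per the file headers. On the laboratory arrays they lie between 10 and 65535, with no background subtraction or normalization. The authors also deposited log2 ratios per contig, and recomputing these log2 values showed that they are fish over pool, centred on the median of each array. No source used here names the scanner. Between the raw and the processed file, the columns of 2 restricted diet fish (replicates 2 and 3) change places. A control array and an array at 4 ug/L cadmium hold raw columns identical to those of other fish and were left out.

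Intensities were corrected with normexp (offset 50, which pulls ratios of dim spots towards 0), normalized by loess within arrays and averaged over 3 spots with limma 3.58.1 (R 4.3.3). Models with a mean per group (lmFit, then eBayes) were fitted to 46 laboratory fish, so that the groups share 1 estimate of the spread, and adjusted by Benjamini-Hochberg over 992 contigs at 0.05. Above background means a mean background-subtracted signal above 0. The pool covariate is the median log2 of the normexp-corrected pool signal. The number of arrays limits the precision. Named contigs had to pass, be above background on every array of the groups compared (for 8 groups, 75% of their arrays) and have groups that do not overlap (for 8 groups, all fish on one side of their mean), ranked by size, 2 per direction. The fit was tested on simulated data. Alternatives are given at the end.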

Additional observations from a re-analysis of the deposited data

Results flagged for a closer look

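Of 40 sets of values within the 2 groups that were screened for a fish far from the others, 6 had one, where chance flags about 1 in 20. Several sets are measures of the same arrays, so the 40 are not independent. On the arrays, restricted diet replicate 1 had the highest median background, at 617 intensity units in the fish channel and 314.2 in the pool channel, and the highest median SD between spots, at 0.216. Low temperature replicate 1 had the fewest contigs with a fish signal above background in its group, 973. Restricted diet replicate 3 had the fewest saturated spots, 2, where each other diet array had 3. Those counts are tied whole numbers, so a single spot set off the flag. The rate of 1 in 20 does not apply there. Low temperature replicate 5 was the lowest of its group for contig_34019, at 0.14.

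Contigs named against the other 8 groups were also flagged where the restricted diet and low temperature differed from each other in the test of that difference (limma, adjusted p under 0.05). The restricted diet minus low temperature was 1.12 for contig_34019, 1.22 for contig_5818, -0.46 for contig_151, -1.50 for contig_25111, -2.16 for contig_11347 and 1.52 for contig_36254. In the fish and pool channels alone it was 0.23 and -0.90 for contig_34019, and 0.87 and -0.32 for contig_5818. For contig_25111 it was -0.67 and 0.89, and for contig_151 it was 1.18 and 1.35, although the ratio of contig_151 was lower on the diet. These channel values are after quantile normalization between arrays. Before that step the background-subtracted fish signal of contig_151 was 586 to 2155 intensity units on the diet arrays. On the low temperature arrays it was 1469 to 3864.5, so its higher fish value on the diet appeared only after normalization. Among these channel values only the pool values of contig_151 and contig_25111 passed (limma adjusted p = 0.0434 and 0.0403).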

How the results depend on the processing

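Counts are given as the percentage of contigs tested that had an adjusted p under 0.05 in limma. For the restricted diet against low temperature, leaving out 1 fish at a time gave 4.94% to 11.0% of all contigs and 10.1% to 19.1% of those above background, where the reported values were 11.1% and 19.6%. The set above background was redrawn for the arrays kept each time, and held 367 to 490 contigs. The authors' processed values gave 38.7% and 39.0%, and array weights 20.9% and 32.2%. Contigs at least 1.5 times background gave 24.3%, from 25 contigs, and the fish channel alone gave 10.6% above background. Median centring gave 10.3% and 13.1%, and 47 of the 110 reported contigs were among them. The other alternatives stayed within 1.5 times of the reported percentages: no background subtraction (10.4% and 18.5%), scaling between arrays (14.8% and 21.8%), only the fish of the 2 groups (14.2% and 24.0%), the pool brightness covariate (10.5% and 18.3%), and the dimmest contigs left out (15.7%). Plain subtraction gave 19.0% of the 812 contigs it could test, over 1.5 times the reported percentage, and 23.4% above background. Fitting only the contigs above background, 367 in place of 992, gave 25.1%. Leaving out diet arrays with under 500 contigs above background removes replicate 1. It gave 7.66% of all contigs and 12.7% of those above background, 62 of 490 in place of 72 of 367. Above background, the share of passing contigs higher on the restricted diet was 62.5% as reported, 33.3% with median centring, 50% without background subtraction, 75.5% in the authors' processed values and 44.0% at 1.5 times background. The median difference over all contigs moved to -0.22 in the authors' processed values. Against the other 8 groups, the restricted diet value of 0.806% became 0.101% with median centring, 40.2% in the authors' processed values, 1.81% with scaling, 3.93% with array weights and 0.101% to 0.403% without 1 diet fish. The low temperature value of 7.86% became 4.84%, 0.880%, 10.9% and 15.8% in the same order, and 3.02% to 7.26% without 1 low temperature fish. The contig that turned was contig_151, at 0.30 in the authors' processed values. The difference in contigs above background per array was -401 as reported, -287.8 at 1.5 times background and -407.2 with low temperature replicate 4 kept. The causes of these changes were not tested. No paired analysis was possible because replicate numbers only name fish.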
